A study of Bos taurus with 53 samples.

Results

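Imprinted genes are transcribed mainly from the copy inherited from 1 parent. The 6 genes described here are NNAT, PEG10, MEST, PLAGL1, SNRPN and CDKN1C, taken by gene symbol from the 24596 features of a count table of day 14 bovine embryos. The list held 7 symbols, and the seventh, PEG3, is not analysed here. The 53 libraries came from 30 embryos that were made in vitro, transferred to 7 recipient cows and flushed on day 14. There were 23 embryonic discs (ED), 28 extraembryonic samples (EX) and 2 undissected HIGH PA embryos (EX+ED). Oocytes had matured in CONTROL medium (no fatty acids and no solvent), in BASAL medium (28 µM stearic, 23 µM palmitic and 21 µM oleic acid in 0.45% ethanol) or in HIGH PA medium (150 µM palmitic acid, with the same stearic acid, oleic acid and ethanol). After maturation all oocytes met the same fertilization and embryo culture media, the latter with bovine serum.

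In mammals studied so far NNAT, PEG10, MEST, PLAGL1 and SNRPN are known as genes expressed from the paternal copy, and CDKN1C as a gene expressed from the maternal copy. The parental marks are set in the germ line, lie in or beside control regions that often serve a whole cluster, and have to be protected when the rest of the genome loses DNA methylation after fertilization. Many of the genes act on fetal growth and on the placenta, and some of them are imprinted only in the placenta or in the brain. The counts used here do not separate the parental copies, so they give the amount of transcript and nothing about imprinting itself.

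The discs held 12 BASAL, 8 HIGH PA and 3 CONTROL samples, and the extraembryonic samples 14, 10 and 4. The CONTROL embryos all came from recipient cow813, and the 3 CONTROL discs were all from tubular male embryos. Discs came from ovoid (8) and tubular (15) embryos, and extraembryonic samples from ovoid (9), tubular (17) and spherical (2) embryos. Discs had 6814 to 6167850 exon reads and extraembryonic samples had 9810 to 19533821. The libraries labelled ED BASAL replicate 7 and EX BASAL replicate 7 held under 10000 reads. They are left out of the levels in CPM (exon reads scaled to a common library total), which therefore cover 22 discs and 27 extraembryonic samples. The dissection was checked with 3 genes. SOX2, a factor of the epiblast, averaged 18.5 CPM ± 13.5 (SD, n = 22) in discs and 0.0132 CPM in extraembryonic samples. GATA4, a factor of the hypoblast, averaged 90.3 CPM ± 39.7 and 18.6 CPM ± 7.17. IFNT2, an interferon tau transcript of the trophectoderm, averaged 1434 CPM ± 863 and 2874 CPM ± 1936, so the disc libraries also held trophectoderm transcripts.

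ED BASAL replicate 12 stood apart from the other discs. It held 0 reads of NNAT, PEG10, MEST, PLAGL1, CDKN1C and SOX2 among 2500029 exon reads, where 0 reads allow a level of up to 1.20 CPM (3 reads, counting error only). Its summed epiblast markers (165 CPM) and hypoblast markers (580 CPM) were the lowest of the discs, and its trophectoderm markers summed to 18765 CPM. Results on discs are therefore given with and without it where they move.

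Among the discs, NNAT was the most abundant of the 6 transcripts per exon length, with a mean of 386 CPM per kilobase. SNRPN followed at 57.1, PEG10 at 12.4, CDKN1C at 5.01, MEST at 3.44 and PLAGL1 at 0.664 CPM per kilobase. NNAT exceeded SNRPN in 21 of 22 discs and SNRPN exceeded PEG10 in 22 of 22, while PEG10 exceeded CDKN1C in 17 and CDKN1C exceeded MEST in 16, so the middle of that order was not kept in every library. In extraembryonic tissue the order was another one. SNRPN led with 34.8 CPM per kilobase, followed by CDKN1C at 2.94, NNAT at 0.734, PEG10 at 0.421, MEST at 0.258 and PLAGL1 at 0.0148. SNRPN exceeded CDKN1C in 27 of 27 extraembryonic libraries, whereas NNAT exceeded PEG10 in 9 of 27, so the mean placed NNAT above PEG10 only through a few libraries.

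**Figure D1:**
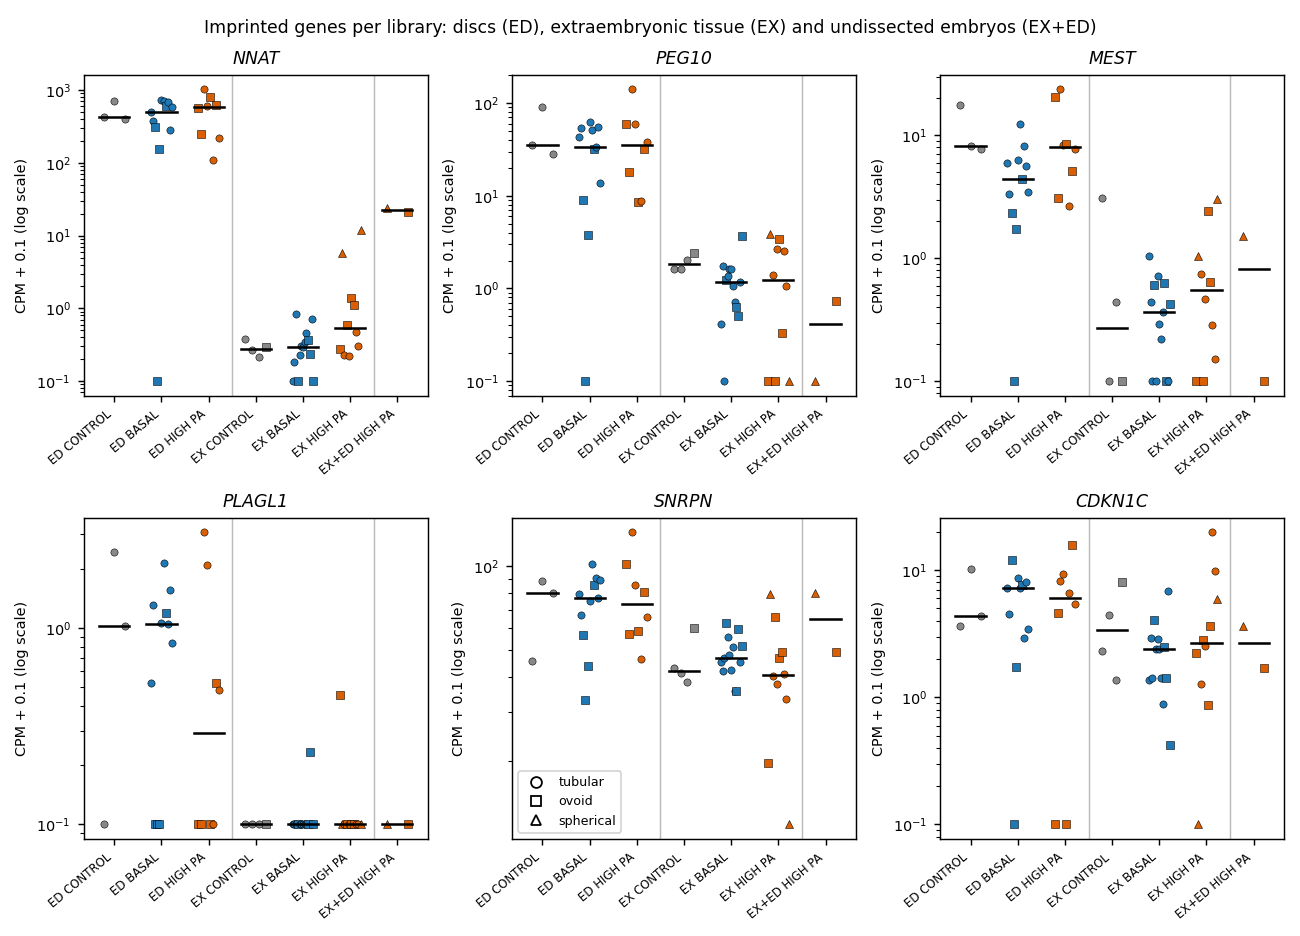
Each panel shows 1 of the 6 genes as CPM + 0.1 on a log axis, by tissue and medium, with a point for every library of at least 10000 exon reads (circles tubular, squares ovoid, triangles spherical) and a bar at the median of each group. NNAT reached 1029 CPM in discs and at most 11.8 CPM in extraembryonic samples, whereas the CDKN1C values of both tissues lay in the same range.

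The first comparison asks which of these genes differed between the embryonic disc and the extraembryonic tissue of the same embryo. NNAT, PEG10 and MEST were higher in the disc by 4 or more on the log2 scale, and PLAGL1 reads came almost only from discs. SNRPN and CDKN1C were present in both tissues and were higher in the disc by less than 1 on the log2 scale. All 5 genes that passed the filter on low counts were called, but NNAT, PEG10 and MEST passed it through the discs, where they were high, so that count is a description. Of the 11921 genes tested 55.3% were called, and 30.8% were called higher in the disc. Calls are genes whose p-value from edgeR's quasi-likelihood test, with a block for each embryo and the Benjamini-Hochberg adjustment over all genes tested, was under 0.05. Discs and extraembryonic samples were also extracted with different kits and sequenced mostly in different lanes, with discs in lanes 1 to 3 of the column names and all but 3 extraembryonic samples in lanes 3, 4 and 8, so that tissue, kit and most of the lane cannot be told apart. In whole tissue samples, fewer cells of a type and less RNA per cell cannot be told apart either, and the p-values rest on the variation among embryos, some of them flushed together.

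NNAT encodes neuronatin, a small membrane protein of the endoplasmic reticulum known from the developing nervous system. In the build used by the authors (UMD3.1) its gene ENSBTAG00000003212 lies on chromosome 13 from 67118489 to 67120879, inside the span of BLCAP (67114712 to 67125217). The discs ranged from 0 through a median of 535 to 1029 CPM, and the extraembryonic samples from 0 through 0.205 to 11.8 CPM. Every disc except ED BASAL replicate 12 lay above the highest extraembryonic sample, and in 21 of 22 embryos the disc was higher. The difference was 10.19 on the log2 scale (SE 0.266, edgeR quasi-likelihood adjusted p = 2.91e-23), a fitted ratio of 1166. The ratio of mean CPM over the 22 discs and 27 extraembryonic samples was 525.97, while the fit on 46 libraries leaves out 5 extraembryonic samples without a disc, among them the 2 spherical ones with the highest NNAT. Only 18.4% of the NNAT exon reads were placed uniquely, against 94.0% over all genes, and with uniquely placed reads alone the difference was 8.72. BLCAP reads were placed uniquely in 22.6%, and since none of the sources used here gives the strand setting of the counting, reads of NNAT and of BLCAP transcripts across it may not be separated. BLCAP averaged 7.15 CPM ± 5.38 in discs and 6.14 CPM ± 4.02 in extraembryonic samples (0.19, edgeR quasi-likelihood adjusted p = 0.548). It had 1793 exon reads in all, beside 24036 of NNAT. The part of BLCAP transcripts in the NNAT counts was not tested.

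PEG10 derives from a retrotransposon and encodes capsid-like proteins known to be needed for the placenta in the mouse. Its gene ENSBTAG00000038093 lies on chromosome 4 from 11912008 to 11921418, next to SGCE, which ends at 11911742. Discs ranged from 0 through a median of 34.4 to 141 CPM, and extraembryonic samples from 0 through 1.27 to 3.74 CPM. The ranges overlapped in 2 discs, ED BASAL replicate 12 at 0 and ED BASAL replicate 2 at 3.70 CPM, while 20 of 22 discs were above every extraembryonic sample. The highest extraembryonic value, 3.74 CPM, was 4 reads of EX HIGH PA replicate 10 in lane 1. Outside lanes 1 and 2 the highest was 3.55 CPM. The difference was 4.68 on the log2 scale (SE 0.326, edgeR quasi-likelihood adjusted p = 4.01e-13), a fitted ratio of 25.7. It was 4.67, 4.86 and 4.75 among BASAL, HIGH PA and CONTROL embryos alone.

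MEST encodes an enzyme of the alpha/beta hydrolase fold and is widely used as a marker of mesoderm. Its gene ENSBTAG00000017223 lies on chromosome 4 from 95066961 to 95079685. Discs ranged from 0 through a median of 6.07 to 23.7 CPM, and extraembryonic samples from 0 through 0.322 to 3.02 CPM. In 21 of 22 embryos the disc was higher, in the other it was equal at 0, and 17 discs lay above every extraembryonic sample. The difference was 4.07 on the log2 scale (SE 0.403, edgeR quasi-likelihood adjusted p = 1.09e-09), a fitted ratio of 16.8. The level rests on 328 reads in all discs and 81 in all extraembryonic samples.

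PLAGL1 encodes a zinc finger transcription factor that restrains cell growth and acts on other imprinted genes. The table holds it as ENSBTAG00000026523 on chromosome 9 from 82419234 to 82420458, with an exon length of 1224 bases in a span of 1225. Such a single stretch may be a partial gene model, which was not checked. Its reads, and its place in the order of abundance, may then be too low. Discs ranged from 0 through a median of 0.582 to 2.96 CPM, and extraembryonic samples from 0 through 0 to 0.356 CPM. Reads were present in 14 of 22 discs and in 2 of 27 extraembryonic samples. Over all libraries there were 51 reads in discs and 3 in extraembryonic samples, a ratio per exon read of 66.7 with an exact 95% counting interval from 21.6 to 334. PLAGL1 did not pass the filter on low counts. Without that filter, among 17103 genes, the difference was 4.50 on the log2 scale (SE 0.562, edgeR quasi-likelihood adjusted p = 1.82e-07), and the disc was higher in 14 embryos, lower in 2 and equal in 6.

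SNRPN encodes a small nuclear ribonucleoprotein of the splicing machinery and belongs to the imprinted cluster known from Prader-Willi syndrome. Its gene ENSBTAG00000008251 lies on chromosome 21 from 2565 to 25936. Discs ranged from 33.2 through a median of 78.3 to 132 CPM, and extraembryonic samples from 11.8 through 45.1 to 79.6 CPM. The ranges overlapped widely, with 10 of 22 discs above every extraembryonic sample, yet the disc was higher in 20 of 22 embryos. The difference was 0.45 on the log2 scale (SE 0.114, edgeR quasi-likelihood adjusted p = 0.00122), a fitted ratio of 1.37 beside a ratio of mean CPM of 1.64. The edgeR quasi-likelihood adjusted p was 0.0711 without cow813, 0.0833 among BASAL embryos alone and 0.0539 among HIGH PA embryos alone.

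SNRPN also stood out by where its reads fell. In discs 60.0% and in extraembryonic samples 63.3% of its exon and intron reads lay in introns. Averaged over libraries, all genes together had 9.49% and 7.65% of their reads in introns. Within embryos the SNRPN share differed by -1.50 percentage points on average (disc minus extraembryonic, SD 16.1, n = 22) and was higher in the disc in 9 of 22, so it did not differ between the tissues beyond that spread. Over all reads of a tissue, the PEG10 share was 9.05% in discs and 7.80% in extraembryonic samples, and for CDKN1C it was 6.59% and 8.02%. Averaged over libraries the order of the tissues turned for both genes. PEG10 then had 7.50% ± 5.10 and 11.9% ± 25.0, and CDKN1C 9.69% ± 13.3 and 7.44% ± 7.47.

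CDKN1C encodes p57, an inhibitor of cyclin-dependent kinases that holds cells out of the cell cycle. Its gene ENSBTAG00000031184 lies on chromosome 29 from 49368786 to 49370785. Discs ranged from 0 through a median of 5.92 to 15.6 CPM, and extraembryonic samples from 0 through 2.31 to 19.7 CPM. No disc lay above the highest extraembryonic sample, and the disc was higher in 16 of 22 embryos, of which 10 of 11 were BASAL, 4 of 8 HIGH PA and 2 of 3 CONTROL. The difference was 0.82 on the log2 scale (SE 0.264, edgeR quasi-likelihood adjusted p = 0.00927), a fitted ratio of 1.77. This call was lost without cow07 (0.55, edgeR quasi-likelihood adjusted p = 0.135), without the embryo block (0.68, 0.0714), among HIGH PA embryos alone (0.48, 0.535) and among CONTROL embryos alone (1.01, 0.246).

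**Figure D2:**
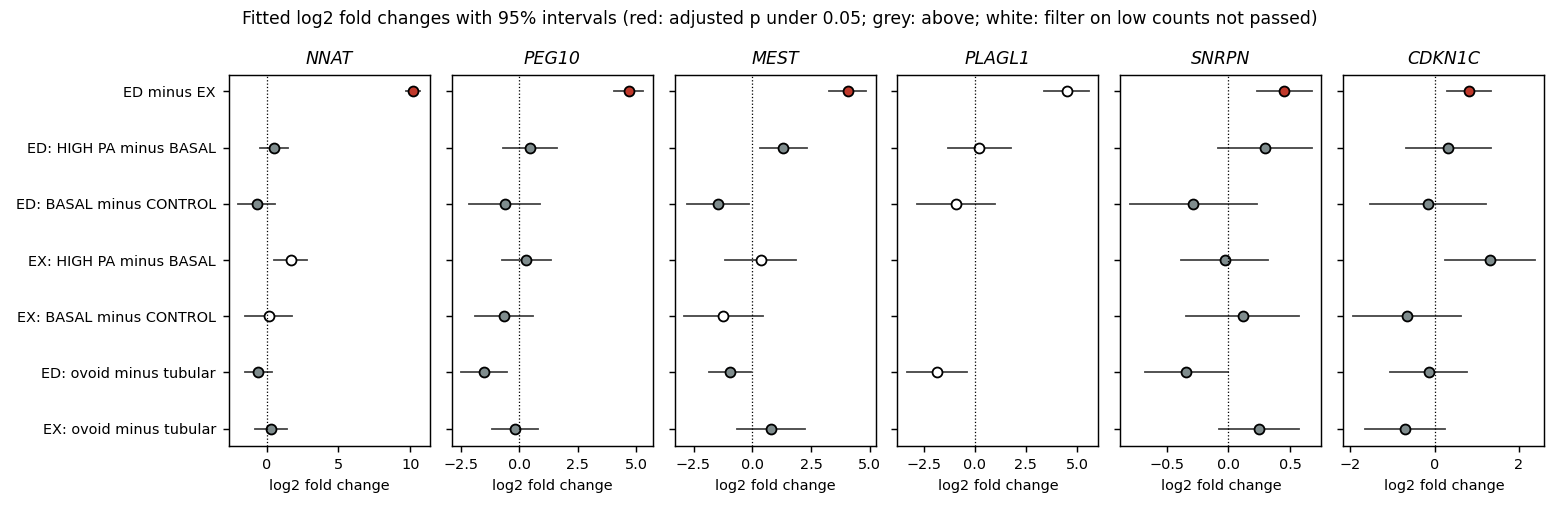
Log2 differences of each gene in 7 of the comparisons, named at the left as first group minus second, with intervals of 1.96 SE and a horizontal scale of its own in each panel. Red points have an edgeR adjusted p under 0.05, grey points do not, and white points did not pass the filter on low counts, and PLAGL1 is left out within extraembryonic tissue, where it had 3 reads. The difference between disc and extraembryonic tissue ran from 10.19 for NNAT to 0.45 for SNRPN.

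Other imprinted genes gave a mixed picture between the tissues. Of 39 genes of the clusters around the 6 genes, 29 had a symbol in the table and 20 passed the filter, of which 11 were higher and 2 lower in the disc, beside 30.8% higher and 24.5% lower of all genes tested. Their median difference was 0.61, beside 0.01 over all genes. From the cluster of PEG10, TFPI2, an inhibitor of serine proteases, was higher in the disc by 3.41 (8.34 CPM ± 7.51 against 0.517 CPM ± 0.521) and PPP1R9A, an actin-binding protein, by 2.24. NDN, a growth suppressor of the SNRPN cluster, was higher by 3.11 (13.4 CPM ± 9.50 against 1.25 CPM ± 0.948). From the cluster of CDKN1C, CD81, a tetraspanin, was higher by 1.95 in 21 of 22 embryos, while ASCL2, a trophoblast transcription factor, was lower by 1.36 (142 CPM ± 66.2 against 284 CPM ± 98.0) in 21 of 22. CARS, a transfer RNA synthetase of that cluster, was lower by 0.37. All of these passed the test, with edgeR quasi-likelihood adjusted p-values from 6.12e-09 for NDN to 0.00142 for CARS. TFPI2, PON3 and MAGEL2 averaged 0.517, 0.0256 and 0.0434 CPM in extraembryonic samples. They passed the filter on low counts through the discs, where they were higher, so the count and the median of this list are descriptions.

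Among 38 imprinted genes of other clusters 26 were in the table and 15 passed the filter, of which 8 were higher and 3 lower in the disc (median 0.39), beside the same 30.8% and 24.5% of all genes. IGF2, a fetal growth factor, was higher by 2.72 (41.5 CPM ± 33.7 against 4.68 CPM ± 3.08) in 20 of 22 embryos. GPR1, a receptor for chemerin, was higher by 4.87, DIRAS3, a small GTPase, by 3.05 and DHCR7, the last enzyme of cholesterol synthesis, by 0.91. HTR2A, a serotonin receptor, was lower by 0.72, GAB1, an adaptor of receptor kinases, by 0.57 and HM13, a signal peptide peptidase, by 0.44. The edgeR quasi-likelihood adjusted p-values of these 7 genes ran from 3.54e-12 for GPR1 to 0.0201 for HTR2A. GPR1, ZDBF2 and DIRAS3 averaged 0.0727, 0.190 and 0.386 CPM in extraembryonic samples. They too passed the filter through the discs, so the count and the median of this list are descriptions.

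Of 21 genes known for protecting or maintaining imprints, 17 were in the table, 14 were tested, and 8 were higher and 0 lower in the disc (median 0.28, beside 0.01 over all genes, of which 30.8% were higher and 24.5% lower). ZNF445, a zinc finger protein that binds imprinting control regions, was higher by 2.36 (12.9 CPM ± 6.83 against 2.43 CPM ± 1.51) and HELLS, a chromatin remodeller, by 1.01. CTCF, which insulates imprinted clusters, was higher by 0.33 and TRIM28, the corepressor of such zinc finger proteins, by 0.29. In the list of proteins related to or acting with the 6 products, 26 of 40 were in the table and 24 were tested, with 2 higher and 13 lower in the disc (median -0.27), where 24.5% of all genes were lower. CCND1 was higher by 1.27 and PLAGL2, a relative of PLAGL1, by 0.46. The cyclin CCND2 (-1.25), the cyclin CCNE2 (-0.75), CDK1, the kinase of mitosis (-0.57), and BAX, a cell death protein (-0.45), were lower in the disc. The edgeR quasi-likelihood adjusted p-values of these 10 genes ran from 1.26e-08 for CCND2 to 0.0305 for PLAGL2. The lists were chosen with earlier results of these data known and their counts are descriptions.

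Over the 22 discs the 6 genes were set beside the summed markers of 3 cell types. The Spearman correlations of CPM are descriptions, and their differences were not tested, since all values of a disc share a library and its mix of cell types. NNAT went with the summed epiblast markers (rho 0.874, 9 of 15 markers in the table) and so did SNRPN (0.743), and both went against the trophectoderm markers (-0.705 and -0.708, 13 of 16 in the table). PEG10 went with the hypoblast markers (0.813, 13 of 14 in the table), as did PLAGL1 (0.741) and CDKN1C (0.635), and PEG10 and PLAGL1 went with each other (0.728). MEST went with epiblast (0.606) and hypoblast (0.591) markers alike, and MEST and CDKN1C had a correlation of 0.0198. Without ED BASAL replicate 12 the values were 0.855 for NNAT and 0.704 for SNRPN with the epiblast sum, and 0.784, 0.718 and 0.589 for PEG10, PLAGL1 and CDKN1C with the hypoblast sum. The discs of sequencing lanes 1 and 2, 10 each, also differed. Their means were 446 and 551 CPM for NNAT, 25.4 and 53.9 for PEG10 and 6.06 and 9.12 for MEST. They were 0.293 and 1.26 CPM for PLAGL1, 64.1 and 84.3 for SNRPN and, the other way, 6.37 and 5.40 for CDKN1C. Trophectoderm sums were 17919 and 14105 CPM. The part of the lane in these correlations was not tested.

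The markers are epiblast or hypoblast genes of the whole dissected disc, whose hypoblast sum was 1820 CPM ± 717 (580 to 3283) against 758 CPM ± 269 (329 to 1604) in extraembryonic samples. The epiblast sum was 815 CPM ± 363 (165 to 1782) against 165 CPM ± 85.8 (27.6 to 451), and the trophectoderm sum 16246 CPM ± 3241 against 22935 CPM ± 4496. Of the markers tested between tissues 9 of 9 for epiblast, 11 of 11 for hypoblast, 11 of 11 for primitive streak and mesoderm, 4 of 4 for neural cells and 2 of 3 for maternal and blood cells were called higher in the disc, and 9 of 13 for trophectoderm were called lower. Of all 11921 genes tested 55.3% were called and 30.8% were called higher in the disc. Markers near 0 in extraembryonic samples, such as SOX2, passed the filter through the discs, so these counts are descriptions. The part of these mixtures in the differences between tissues was not tested.

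**Figure D3:**
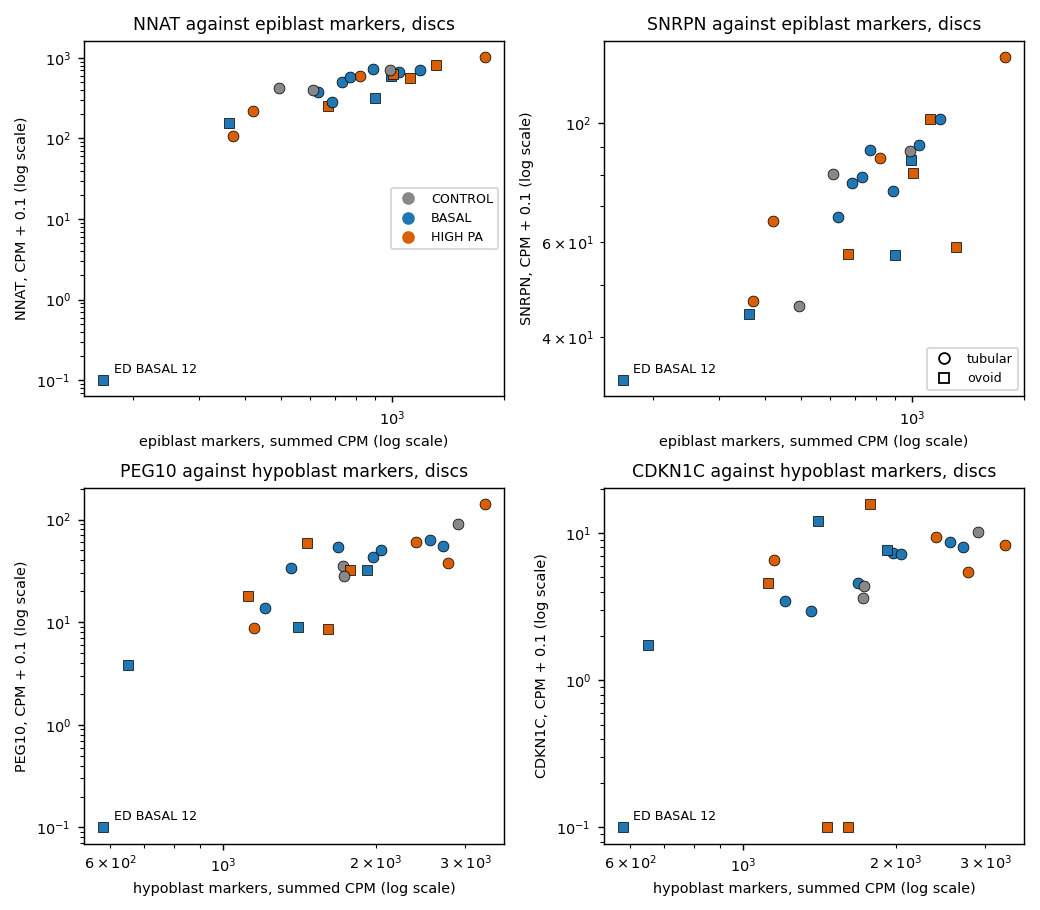
Each point is 1 of the 22 discs (circles tubular, squares ovoid, colours by medium), with the summed CPM of epiblast or hypoblast markers on the horizontal log axis and the CPM + 0.1 of NNAT, SNRPN, PEG10 or CDKN1C on the vertical log axis. NNAT goes with the epiblast sum (rho 0.874) and PEG10 with the hypoblast sum (rho 0.813), and ED BASAL replicate 12 lies at 0 CPM for NNAT, PEG10 and CDKN1C.

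The genes most like each of the 6 over the 22 discs, by Spearman correlation among 11040 or fewer genes, were SEPT3 (0.919), CDCA7L (0.890) and GNAI2 (0.888) for NNAT. For PEG10 they were GREB1 (0.911), IGFBP4 (0.890) and AQP8 (0.886), and for PLAGL1 SLC13A3 (0.914), NLN (0.897) and STRA6 (0.893). For MEST they were ANKRD6 (0.924), REEP2 (0.896) and RTN2 (0.886), and for SNRPN TOP2A (0.932), CHN1 (0.895) and PPP4R4 (0.890). For CDKN1C the first were ITGAE (0.869) and ENSBTAG00000000011 (0.832). Without ED BASAL replicate 12 the first gene of each list was unchanged, and the others changed for PEG10 (EFEMP2 at 0.882 entered), SNRPN (OGFOD3 at 0.917 and L3MBTL2 at 0.916) and CDKN1C (HMGA2 at 0.783).

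The next comparison asks whether palmitic acid during oocyte maturation went with a difference in the discs at day 14. MEST had the largest difference between HIGH PA and BASAL discs among the 5 tested genes, and NNAT, PEG10, SNRPN and CDKN1C differed by 0.53 or less on the log2 scale. None of the 5 was called, and 0% of 11040 genes were (edgeR), with 1004 genes at an unadjusted p under 0.05 and 0 called by DESeq2. Without cow07 there were 97 called genes, and MEST was not among them (1.98, edgeR quasi-likelihood adjusted p = 0.0689). MEST ranged from 0 through a median of 4.34 to 12.2 CPM in BASAL discs (mean 4.79 CPM ± 3.37) and from 2.54 through 7.94 to 23.7 CPM in HIGH PA discs (mean 9.86 CPM ± 7.87). The 3 CONTROL discs had 7.67, 8.16 and 17.6 CPM. Of 11 BASAL discs 9 lay below the lowest CONTROL disc, while HIGH PA discs spanned the CONTROL values, with 4 below and 2 above them.

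The MEST difference was 1.32 for HIGH PA against BASAL (SE 0.506, edgeR quasi-likelihood p = 0.0146, adjusted p = 0.501) and -1.47 for BASAL against CONTROL (SE 0.667, p = 0.0368, adjusted p = 1.00). These comparisons share the BASAL discs. The 3 CONTROL discs were all tubular, while MEST averaged 2.06 CPM in 4 ovoid and 6.36 CPM in 7 tubular BASAL discs. Shape was not a term in these fits, so medium and shape are mixed in the comparisons with CONTROL. For HIGH PA against CONTROL the MEST difference was -0.14 (SE 0.655). The difference from BASAL was 0.54 with cow as a term and 0.69 with the ratio of epiblast to trophectoderm markers as a term, and HIGH PA discs had a mean trophectoderm sum of 14830 CPM ± 3892 beside 16950 CPM ± 2723 in BASAL discs. The part of that mix in the MEST values was not tested beyond these fits.

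NNAT ranged from 108 through a median of 585 to 1029 CPM in HIGH PA discs and from 0 through 501 to 735 CPM in BASAL discs, and the CONTROL discs had 402, 425 and 699 CPM. The difference between HIGH PA and BASAL was 0.53 with an interval from -0.44 to 1.50. PEG10 ranged from 8.40 through 34.97 to 141 CPM in HIGH PA discs and from 0 through 33.7 to 62.8 CPM in BASAL discs, with 28.2, 35.1 and 90.2 CPM in CONTROL discs. Its difference between HIGH PA and BASAL was 0.44 (interval -0.71 to 1.59). The groups overlapped for both genes. SNRPN differed by 0.30 (interval -0.08 to 0.68) and CDKN1C by 0.32 (interval -0.69 to 1.33), and these intervals leave room for differences of either sign.

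BASAL against CONTROL discs gave -0.69 for NNAT, -0.64 for PEG10, -0.29 for SNRPN and -0.16 for CDKN1C, with 0% of 11040 genes called (edgeR), 379 genes at an unadjusted p under 0.05 and 0 called by DESeq2. Here too all CONTROL discs were tubular, while 4 BASAL discs were ovoid. HIGH PA against CONTROL discs gave -0.16, -0.20, 0.01 and 0.16 for the same genes, again with 0% of 11040 genes called, 465 at an unadjusted p under 0.05 and 1 called by DESeq2. PLAGL1 had reads in 8 of 11 BASAL discs (mean 0.806 CPM), 4 of 8 HIGH PA discs (0.720 CPM) and 2 of 3 CONTROL discs (1.08 CPM).

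Of the other imprinted and partner genes in discs, those of lowest p in each list were DIRAS3 (1.50, 6.82 CPM ± 6.66 in HIGH PA against 2.90 CPM ± 1.56 in BASAL discs), ASCL2 (-0.86), CCND2 (-0.94) and HELLS (0.44). Their edgeR quasi-likelihood adjusted p-values ran from 0.451 for CCND2 to 0.528 for HELLS, so none was called. The medians of the 4 lists were 0.05 for cluster neighbours, -0.03 for other imprinted genes, 0.12 for imprint protection and 0.01 for relatives and partners, beside 0.0063 over all genes. Against CONTROL the gene of lowest p was RLIM, a ubiquitin ligase of the imprint protection list, at 79.4 CPM ± 32.6 in HIGH PA and 34.9 CPM ± 6.14 in CONTROL discs (0.95, edgeR quasi-likelihood p = 0.00102, adjusted p = 1.00).

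In extraembryonic tissue the same question gave CDKN1C the largest difference of the 3 members that passed the filter (PEG10, SNRPN and CDKN1C). Its values ranged from 0.322 through a median of 2.28 to 6.74 CPM in BASAL samples, from 0 through 2.58 to 19.7 CPM in HIGH PA samples, and were 1.26, 2.19, 4.34 and 7.97 CPM in the 4 CONTROL samples. All but 2 HIGH PA samples lay inside the BASAL range or below it. The difference between HIGH PA and BASAL was 1.32 on the log2 scale (SE 0.544, edgeR quasi-likelihood p = 0.0220, adjusted p = 0.999). None of the members that passed the filter was called, nor was any of 10969 genes (0%, edgeR), with 531 genes at an unadjusted p under 0.05 and 0 called by DESeq2.

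The CDKN1C values went with the sequencing lane. The 4 extraembryonic libraries of lane 8 with over 10000 reads, all from tubular embryos, had 19.7 and 9.68 CPM (HIGH PA replicates 7 and 8) and 6.74 and 2.84 CPM (BASAL replicates 8 and 10), a mean of 9.74 CPM against 2.37 CPM in the other 23. All 4 lay above the median of the others. Without the lane 8 libraries the difference between HIGH PA and BASAL was 0.24, with lane as a term 1.03, and without cow813 it was 0.53. Their trophectoderm markers summed to 29203 CPM ± 6677, beside 22935 CPM over all extraembryonic samples. The part of the lane in the result was not tested beyond these fits.

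PEG10 differed by 0.30 and SNRPN by -0.03 between HIGH PA and BASAL extraembryonic samples, with intervals from -0.74 to 1.34 and from -0.39 to 0.33. NNAT and MEST did not pass the filter there. Without the filter NNAT differed by 1.68 (edgeR quasi-likelihood p = 0.00732, adjusted p = 0.563), where the BASAL samples ranged from 0 through a median of 0.192 to 0.739 CPM and the HIGH PA samples from 0.121 through 0.429 to 11.8 CPM. The 2 highest of these were the spherical embryos, described with the shapes. The sample at 11.8 CPM, EX HIGH PA replicate 9, has no settled sex and was not in that fit. BASAL against CONTROL gave -0.67 for PEG10, 0.12 for SNRPN and -0.66 for CDKN1C (0% of 10969 genes called by edgeR, 372 at an unadjusted p under 0.05, 1 by DESeq2). HIGH PA against CONTROL gave -0.37, 0.09 and 0.66 (0% of 10969 called by edgeR, 1057 at an unadjusted p under 0.05, 1 by DESeq2).

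Among the listed genes the lowest p in extraembryonic tissue belonged to OSBPL5, a lipid transfer protein gene of the CDKN1C cluster, with 36.6 CPM ± 16.4 in HIGH PA, 25.1 CPM ± 5.91 in BASAL and 20.6 CPM ± 4.78 in CONTROL samples. Its difference was 0.61 from BASAL (edgeR quasi-likelihood adjusted p = 0.465) and 0.92 from CONTROL (adjusted p = 0.478). CDKN1A, a relative of CDKN1C that answers to p53, had 56.6 CPM ± 36.4 in HIGH PA, 37.2 CPM ± 29.9 in BASAL and 11.4 CPM ± 7.46 in CONTROL samples, with an edgeR quasi-likelihood adjusted p of 0.478 for HIGH PA against CONTROL. Neither was called.

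Whether the effect of HIGH PA differed between disc and extraembryonic tissue was tested directly. The difference of the effects was 0.79 for MEST, 0.49 for PEG10, 0.42 for SNRPN, -0.41 for NNAT and -0.97 for CDKN1C (disc minus extraembryonic, log2). None was called, nor were any of 11921 genes (0%, edgeR), with 366 at an unadjusted p under 0.05 and 0 called by DESeq2.

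Embryo shape at day 14 marks how far elongation has gone, from spherical through ovoid to tubular. In discs PEG10 had the largest difference between ovoid and tubular embryos of the 5 tested genes. It ranged from 0 through a median of 13.5 to 59.2 CPM in 8 ovoid discs (20.3 CPM ± 19.8) and from 8.75 through 46.7 to 141 CPM in 14 tubular discs (51.0 CPM ± 33.3). The ranges overlapped, with 7 of 8 ovoid discs below the tubular median and 3 below the lowest tubular disc. The difference was -1.52 (ovoid minus tubular, SE 0.508, edgeR quasi-likelihood p = 0.00598, adjusted p = 0.560), so it was not called. None of the members was called, nor were any of 10217 genes (0%, edgeR), with 727 at an unadjusted p under 0.05 and 17 called by DESeq2.

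The PEG10 difference was -1.24 without ED BASAL replicate 12, -0.94 without cow66, -0.48 with cow as a term, -1.99 among BASAL discs alone and -0.84 among HIGH PA discs alone. Hypoblast markers summed to 1316 CPM ± 496 in ovoid and 2107 CPM ± 674 in tubular discs, while epiblast sums were 814 and 816 CPM. Without ED BASAL replicate 12 the ovoid sums were 1422 CPM ± 429 for hypoblast and 907 CPM ± 309 for epiblast. Of the tested hypoblast markers 11 of 11 were below 0 and 0 were called. That count is a description, since the markers share a cell type and the same libraries. The share of all genes below 0 is not reported here. The part of the hypoblast in the PEG10 values was not tested.

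PLAGL1, the gene that went with PEG10 over the discs, averaged 0.188 CPM in ovoid and 1.17 CPM in tubular discs, and 7 of 8 ovoid discs lay below the tubular median. MEST ranged from 0 through a median of 3.67 to 20.3 CPM in ovoid and from 2.54 through 7.66 to 23.7 CPM in tubular discs, a difference of -0.95 (SE 0.454, edgeR quasi-likelihood p = 0.0474, adjusted p = 0.698). SNRPN differed by -0.34, NNAT by -0.56 and CDKN1C by -0.14, with intervals from -0.68 to -0.01, from -1.51 to 0.38 and from -1.06 to 0.77. CDKN1C spread most among the ovoid discs, from 0 to 15.6 CPM, with 4 below and 2 above all tubular discs. TFPI2, which lies in the PEG10 cluster, had 4.28 CPM ± 3.50 in ovoid and 10.7 CPM ± 8.28 in tubular discs (-1.94, edgeR quasi-likelihood adjusted p = 0.380).

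In extraembryonic tissue edgeR called 0 of the 5 tested members between shapes and 11.4% of 11880 genes, and with 5 members that share leaves 0 as no result about them. Of the genes called by edgeR 706 were higher and 643 lower in ovoid samples, while DESeq2 called 367 higher and 630 lower, and 0 genes were called with cow or with lane as a term. The edgeR count ran from 3 without cow813 to 4062 without cow13. SNRPN ranged from 19.6 through a median of 51.6 to 65.7 CPM in ovoid and from 33.4 through 42.1 to 55.7 CPM in tubular samples, a difference of 0.25 (SE 0.164, edgeR quasi-likelihood adjusted p = 0.286). Without cow72 this difference was 0.38 with an adjusted p of 0.0255 in edgeR. That fit also called more of all genes than the main one, so the call is no result particular to SNRPN. NNAT differed by 0.32, MEST by 0.80, PEG10 by -0.19 and CDKN1C by -0.70, with intervals that include 0 for all 4. CDKN1C ranged from 0.322 through 2.38 to 7.97 CPM in ovoid and from 0.791 through 2.29 to 19.7 CPM in tubular samples, and without the lane 8 libraries its difference was 0.46.

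PEG10 in extraembryonic tissue also went with a mark. The column names of 7 extraembryonic libraries carry a further 2, whose meaning the labels do not give, on 5 of 9 ovoid, 1 of 16 tubular and 1 of 2 spherical samples. In the 6 marked samples that were not spherical PEG10 ranged from 0 to 0.529 CPM (0.193 CPM ± 0.232), and in the 19 unmarked ones from 0.316 to 3.55 CPM (1.66 CPM ± 0.856). All 6 lay below the median of the unmarked samples and 4 below the lowest of them. Among unmarked samples the 4 ovoid ones averaged 2.59 CPM and the 15 tubular ones 1.41 CPM. With the mark as a term the ovoid difference was 0.90 (edgeR quasi-likelihood adjusted p = 0.242), and without the marked libraries 0.80 (adjusted p = 0.170), so its sign depends on how these libraries are treated.

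**Figure D4:**
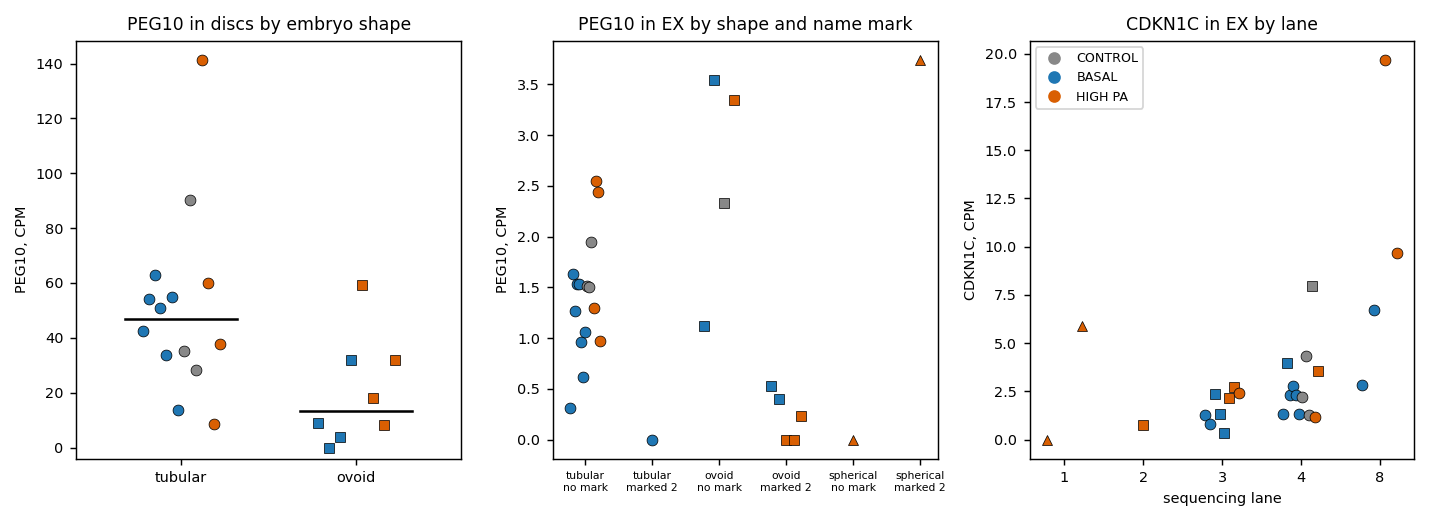
The left panel shows PEG10 in discs by embryo shape with bars at the medians, the middle panel PEG10 in extraembryonic samples (EX) by shape and by the mark 2 in the column name, and the right panel CDKN1C in extraembryonic samples by sequencing lane, all in CPM with a point per library. In the middle panel the marked samples that are not spherical lie at or below 0.529 CPM, and in the right panel the 4 samples of lane 8 lie between 2.84 and 19.7 CPM.

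Some other listed genes were called between shapes in extraembryonic tissue. CD81 was higher in ovoid samples by 0.88 (13.1 CPM ± 4.82 against 7.01 CPM ± 2.19), IGF2 by 1.06 (7.27 CPM ± 3.05 against 3.40 CPM ± 2.01) and TRIM28 by 0.39. CDK1 was lower in ovoid samples by 0.47 and CCNE1, the cyclin that starts DNA replication, by 0.43. Their edgeR quasi-likelihood adjusted p-values ran from 0.0132 for CD81 to 0.0472 for CCNE1. These 5 were the called genes among 70 tested in the 4 lists, a smaller share than the 11.4% of all genes, so the count is no result about the lists, and all calls in this comparison were lost with cow or lane as a term.

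The ovoid effect was also compared between the tissues. The difference of the effects (disc minus extraembryonic) was -2.06 for MEST (SE 0.883, edgeR quasi-likelihood p = 0.0282, adjusted p = 0.310) and -0.56 for SNRPN (SE 0.231, p = 0.0216, adjusted p = 0.291). It was -1.06 for PEG10, -0.99 for NNAT and 0.05 for CDKN1C. None was called, nor were any of 11921 genes (0%, edgeR), with 1707 at an unadjusted p under 0.05 and 67 called by DESeq2. IGF2 came nearest among the listed genes, at -2.06 (edgeR quasi-likelihood adjusted p = 0.0914).

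The 2 spherical extraembryonic samples held the highest NNAT values of that tissue. EX HIGH PA replicate 9 had 11.8 CPM (4 reads of 340016, exact 95% interval 3.21 to 30.1) and EX HIGH PA replicate 10 had 5.62 CPM (6 reads of 1068407, interval 2.06 to 12.2), while the other 25 samples ranged from 0 to 1.29 CPM. Of these reads 0 of 4 and 3 of 6 were placed uniquely, so that on uniquely placed reads replicate 9 had none. Both lay far below the disc median of 535 CPM. Against ovoid samples the difference was 3.74 (SE 0.910, edgeR quasi-likelihood adjusted p = 0.0134), beside 7.33% of 11435 genes called. With DESeq2 the adjusted p was 0.0603, and with HIGH PA samples alone edgeR gave 0.127. PEG10 differed by 0.97, MEST by 1.45, SNRPN by -0.06 and CDKN1C by -1.62, and these were not called.

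This comparison was chosen after the NNAT values had been seen. SOX2 was at 0 reads in both spherical samples, where 0 reads allow up to 8.82 and 2.81 CPM (3 reads, counting error only). At that depth the 0 cannot tell whether disc cells were present. The epiblast markers of the 2 samples summed to 271 and 451 CPM, beside 165 CPM ± 85.8 over all extraembryonic samples. Both libraries shared lane 1 with discs. The 3 extraembryonic libraries of lanes 1 and 2, where most discs ran, had the 3 highest NNAT values. EX HIGH PA replicate 5 with 1.29 CPM was the third, and the highest of the others had 1.01 CPM. The same 3 libraries ranked 1, 3 and 24 of 27 for PEG10 and 2, 3 and 5 for MEST. For SNRPN they ranked 1, 12 and 27 and for CDKN1C 5, 25 and 27, and PLAGL1 was at 0 in each. Lane 3 also held 2 discs, and its 8 extraembryonic libraries had at most 0.483 CPM of NNAT. The part of the lane or of disc cells in the NNAT values was not tested. In the same comparison GAB1 was higher in spherical samples by 1.69 (93.6 CPM ± 15.9 against 23.7 CPM ± 11.7) and UHRF1, which recruits the maintenance DNA methyltransferase, was lower by 1.11 (38.2 CPM ± 20.9 against 69.4 CPM ± 11.8), with edgeR quasi-likelihood adjusted p-values of 0.00299 and 0.0108.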

How the data were processed

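Messenger RNA libraries of total RNA from dissected day 14 bovine embryos were sequenced, per the labels' protocols, with a stranded kit as paired reads of 50 bases, 12 samples to a lane. The deposited table gives whole-number counts of exon reads per gene, counts of uniquely placed exon reads and counts of intron reads, per the file headers. The genome build UMD3.1 and DESeq2 1.10.1 are credited to the submitters' processing notes. The aligner and the strand setting of the counting are not given in the sources used here. Of 24596 features 18541 carry a symbol. RefSeq tables of another assembly were not used here.

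Samples were grouped by their labels. Exon counts were tested with edgeR 4.0.16 in R 4.3.3 (filterByExpr, TMM scaling, quasi-likelihood F test, Benjamini-Hochberg adjustment over all genes tested). SE is the absolute log2 difference over the square root of F, and intervals are 1.96 SE. Tissues were compared with embryo as a block. Media and shapes were compared within a tissue, with sex and, for shape, medium as terms. Fits with sex do without 1 extraembryonic HIGH PA sample whose sex the labels do not settle, and no fit holds the 2 undissected samples. The difference of an effect between tissues was an interaction term in the fit with embryo as a block. Spherical samples were compared without a sex term. CPM levels leave out 2 libraries under 10000 reads, which the fits keep.

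Discs and extraembryonic samples that the labels give the same cow, medium and embryo number come from 1 embryo. Deviations of the parts of an embryo had a median correlation of 0.174 over 22 pairs (16 over 0.1), against -0.00255 over 462 pairs of different embryos. Of 1378 pairs of libraries 0 were identical. The edgeR test was tried on simulated data for the tissue comparison and for the difference of the ovoid effect. The same was done for HIGH PA against BASAL and for ovoid against tubular in each tissue. The other comparisons and the alternatives were not simulated. The outcome of the simulations is not reported here, and a gene that was not called may still differ.

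The genes, the 4 lists and the markers were chosen with earlier results of these data known. Named are the 6 genes, from each list up to 4 called genes of lowest p per direction between tissues and otherwise up to 4 called or the 1 of lowest p (of these the text names a part), and for each gene the 3 most correlated over discs, of which 1 is not reported here. Alternatives were DESeq2 1.42.0, its size factors in edgeR, no filter, uniquely placed reads, no block, cow or shape or lane or the marker ratio as terms, and leaving out cows, libraries, media, lane 8 or marked libraries. Figures were made with matplotlib 3.10.9 in Python 3.11.15.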

Additional observations from a re-analysis of the deposited data

Results flagged for a closer look

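A library far from the rest was looked for in 17 checks, each of 1 gene in 1 group of 4 to 10 libraries, and 5 found one. A chance rate of about 1 in 20 would need independent checks. These share libraries and some rest on few reads, so the count is a description. NNAT in EX HIGH PA replicate 9 was 11.8 CPM, with the next at 5.62 CPM. PEG10 in ED HIGH PA replicate 3 was 141 CPM, with the next at 59.9 CPM. That disc also had the highest NNAT, MEST, PLAGL1 and SNRPN of all discs, the highest epiblast sum (1782 CPM) and the lowest trophectoderm sum (7575 CPM). MEST in EX CONTROL replicate 1 was 3.02 CPM, with the next at 0.344 CPM. PLAGL1 in EX HIGH PA replicate 1 was 0.356 CPM, with all others of its group at 0. CDKN1C in EX HIGH PA replicate 7 was 19.7 CPM, with the next at 9.68 CPM.

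The 2 undissected HIGH PA embryos entered no comparison. NNAT was 24.2 CPM in replicate 1 and 21.0 CPM in replicate 2, above every extraembryonic sample and below every disc other than ED BASAL replicate 12. SNRPN was 80.3 and 49.1 CPM and CDKN1C 3.55 and 1.59 CPM. PEG10, MEST and PLAGL1 had 2 reads or fewer each in these libraries.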

How the results depend on the processing

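The calls of NNAT, PEG10 and MEST between tissues kept their direction and their side of the threshold in every alternative that gave a value, with log2 differences without 1 cow of 10.02 to 10.43, 4.54 to 4.91 and 3.81 to 4.45; NNAT and MEST gave none among BASAL embryos alone, where they did not pass the filter. Without the replicate block on embryo 6608 genes were called between tissues and CDKN1C was not (0.68, edgeR adjusted p = 0.0714), and the block changed no other call of the 5 genes. Lane, mark 2, marker ratio, spherical and single-medium alternatives were chosen after seeing the data. Depth limits PLAGL1 throughout and NNAT and MEST in extraembryonic tissue. The cause of the moves that follow was not tested.

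Calls between tissues numbered 3137, 2046 and 2740 among BASAL, HIGH PA and CONTROL embryos alone. For HIGH PA against BASAL they were 4 (no filter), 2 (marker ratio as a term) and 0 to 97 (without 1 cow, the 97 without cow07) in discs. In extraembryonic tissue they were 9 (no filter), 1 (spherical samples left out), 1 (marked samples left out) and 0 to 1 (without 1 cow). DESeq2 called 1 gene for BASAL against CONTROL in extraembryonic tissue, where cow813 alone gave 2, and 1 for HIGH PA against CONTROL in each tissue. Between shapes in discs there were 17 (DESeq2), 1 (BASAL only), 4 (marker ratio) and 0 to 4 (without 1 cow). Between shapes in extraembryonic tissue there were 0 with cow or lane as a term and 0 among HIGH PA samples, 1 among BASAL samples, 6 without lane 8, 21 with the mark as a term and 229 without marked samples. Without 1 cow that count ran from 3 (cow813) through 59 (cow66), 138 (cow07) and 2944 (cow72) to 4062 (cow13). For the difference of the ovoid effect there were 67 (DESeq2), 24 (no filter) and 3 (without ED BASAL replicate 12). Spherical against ovoid gave 512 with DESeq2 and 13 among HIGH PA samples.

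Signs turned only for values that were not called. For HIGH PA against BASAL in discs, NNAT was -0.12 and PEG10 -0.28 with the marker ratio as a term, PEG10 -0.39 and CDKN1C -0.034 with cow as a term; without 1 cow PEG10 ran from -0.071 (cow66) to 1.01 and CDKN1C from -0.15 (cow66) to 0.59. In extraembryonic tissue PEG10 was -0.25 with lane as a term and -0.00020 (cow25) to 0.71 without 1 cow, and SNRPN was 0.0012 with cow as a term and -0.30 to 0.16 without 1 cow, above 0 without cow13, cow66 or cow72. For BASAL against CONTROL, SNRPN was 0.076 in discs and -0.0016 in extraembryonic tissue of cow813, and CDKN1C 0.097 in discs without ED BASAL replicate 12. For HIGH PA against CONTROL in extraembryonic tissue, the mark as a term and the marked samples left out gave 0.12 and 0.15 for PEG10 and -0.092 and -0.053 for SNRPN, and CDKN1C was -0.72 without lane 8. Between shapes in discs, cow as a term gave 0.029 for NNAT, 0.049 for SNRPN and 0.61 for CDKN1C, which was also 0.097 without ED BASAL replicate 12, 0.052 among HIGH PA discs and -1.13 to 0.34 without 1 cow (above 0 without cow66 or cow72). Between shapes in extraembryonic tissue NNAT was -0.0038 with DESeq2, -0.37 with the mark as a term and -0.47 (cow07) to 0.66 without 1 cow. PEG10 was -0.49 to 0.37 (cow07) without 1 cow, 0.20 among BASAL samples, 0.90 with the mark as a term and 0.80 without marked samples, and CDKN1C was 0.44 with cow as a term, 0.72 with lane as a term and 0.46 without lane 8. The difference of the HIGH PA effect for NNAT was 0.067 with DESeq2 and 0.022 with uniquely placed reads, and that of the ovoid effect for CDKN1C was -0.16 with DESeq2.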
